A study of Rattus norvegicus with 9 samples.

Results

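Interferon-stimulated genes are the genes that cells switch on when they sense an interferon. The 35 genes described here were a named list of type I and type II interferon response genes, matched by symbol to the deposited expression table of rat knee tissue. All 35 were found among the 17602 genes of the table, and all 35 were above 0 TPM (the share of a library's transcripts that a gene takes, corrected for transcript length and scaled to the same total in each library) in at least 3 of the 9 libraries. The list was chosen by name and not by these measurements, although earlier results of the same table were known when it was drawn up.

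The libraries came from wild-type (WT) male Lewis rats aged 10 to 12 weeks. The intact group received no surgery, and synovium, the soft lining of the joint, was taken from around its medial meniscus. In the sham group the joint capsule was opened and closed, and the same synovium was taken 1 week later. In the pMx group the front part of the medial meniscus was removed (partial meniscectomy) in both knees, and the tissue regrowing in the defect was taken 1 week later with the adjoining synovium trimmed away. Each group had 3 libraries labelled as biological replicates, and no source states how many animals or knees each library held, so the tests measure the spread between these libraries. The pMx and sham groups differ in the surgery and also in the tissue sampled, and these cannot be told apart. DEG is used for a differentially expressed gene by the thresholds of the study's methods, that is, one with a log2 fold change beyond 1 in either direction and an adjusted p under 0.05.

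Type I interferons bind the receptor chains IFNAR1 and IFNAR2, which activate the kinases JAK1 and TYK2 and so the transcription factor STAT2. STAT2 acts together with IRF9 in a complex that binds a DNA element called the ISRE (interferon-stimulated response element). Type II interferon acts through its own receptor and a different element, the GAS (gamma-activated sequence). In the joint, interferon-stimulated genes are best known from the inflamed synovium of arthritis, where lining fibroblasts, macrophages and endothelial cells can all express them.

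The letters of the ISRE core can be read directly in the promoters of many of these genes. The following stretches of 60 bases show them in genes of different roles and behaviour in these data. The capitals mark every match to the ISRE core, which was searched as GAAA, any 2 bases and GAAA again, on the strand shown or as its reverse complement (TTTC, any 2 bases, TTTC). The stretches run 5′ to 3′ on the strand of the gene and all lie before its annotated start.
Ifit3: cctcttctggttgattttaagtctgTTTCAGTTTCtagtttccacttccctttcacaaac
Gbp5: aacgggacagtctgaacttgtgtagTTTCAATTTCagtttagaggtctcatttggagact
Bst2: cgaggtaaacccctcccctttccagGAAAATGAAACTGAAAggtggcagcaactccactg
Ifih1: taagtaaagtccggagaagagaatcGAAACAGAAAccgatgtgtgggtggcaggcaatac
Gbp2: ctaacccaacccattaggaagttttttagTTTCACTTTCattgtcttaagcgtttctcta
Tap1: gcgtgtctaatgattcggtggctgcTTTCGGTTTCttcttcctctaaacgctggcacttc

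These sequences come from RefSeq on the rat assembly GRCr8. The Ifit3 stretch is chr1:241527257-241527316 on the plus strand, and the Gbp5 and Gbp2 stretches are chr2:233910918-233910977 and chr2:234005667-234005726, also on the plus strand. The Bst2 stretch is chr16:18255064-18255123, the Ifih1 stretch is chr3:67683993-67684052 and the Tap1 stretch is chr20:4668630-4668689, all on the minus strand. In Bst2 a pair of overlapping matches forms 1 longer run.

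Promoter windows, from 250 bases before to 50 bases after the annotated start, were found for 28 of the 35 genes. Dhx58, Ifit2, Isg15, Mx2, Oas2, Usp18 and Zbp1 had none in the table used. The ISRE core, searched on both strands, was present in 18 of the 28 windows (64.3%), against 1312 of all 33469 windows (3.92%). A longer form (AGTTTC, any 2 bases, TTTC), which contains the reverse complement of the core and was also searched on both strands, was present in 9 of the 28 (32.1%) and in 0.278% of all windows. The GAS letters (TTC, any 3 bases, GAA), which read the same on both strands, were present in 6 of the 28 (21.4%) and in 8.87% of all windows. A match is a run of letters and not a measured binding site, and several genes of the same family share ancestry in their promoters.

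**Figure D1:**
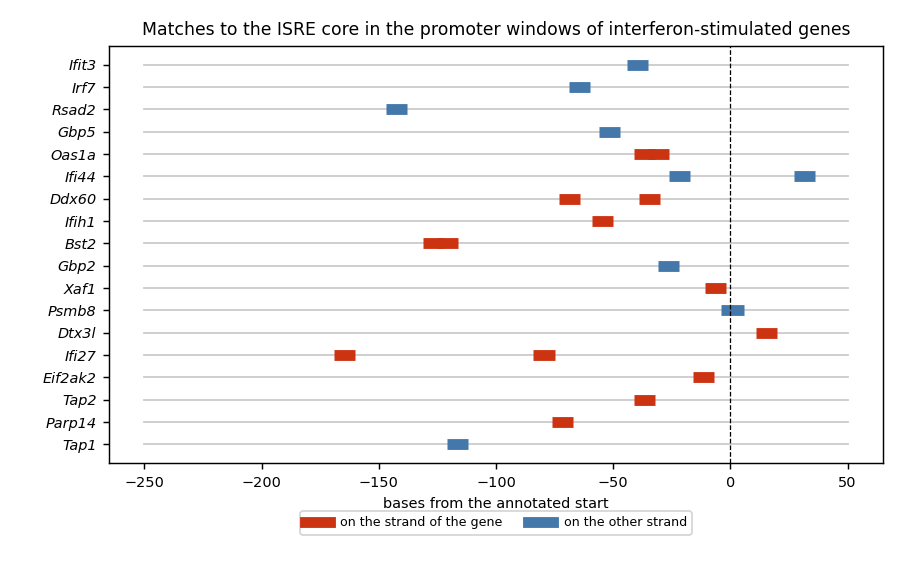
Matches to the ISRE core in the 18 promoter windows that hold one, drawn by distance in bases from the annotated start (dashed line), with red bars for the strand of the gene and blue bars for the other strand. In 16 windows a match lies wholly before the start, in Psmb8 it spans the start and in Dtx3l it follows it, and the windows of Ifi44, Ifi27 and Ddx60 include 2 separate matches.

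Before the members are compared, some libraries stood apart. The skeletal muscle marker genes summed to 37285 TPM in Intact 3, against 52.6 and 167 TPM in Intact 1 and Intact 2 and between 75.9 and 2508 TPM in the sham and pMx libraries. Intact 3 also had the lowest level of its group for 32 of the 35 interferon-stimulated genes, so counts against the intact group are given with and without it, and a gene's result against intact is given for all 9 libraries unless it is said to leave Intact 3 out. Sham 3 had the highest sham level for 30 of the 35. The first principal component of all genes held 63.0% of the variance. Between 15644 and 16125 genes were above 0 TPM in a library, no pair of libraries held identical values, and the read depth is unknown because TPM keeps no read numbers.

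The tissue labels were checked against marker genes. The joint lining gene Prg4 (lubricin) was present in every group, at 2646 ± 478, 1315 ± 118 and 1453 ± 335 TPM in intact, sham and pMx (mean ± SD, n = 3). Clic5, another gene of the synovial lining, was at 462 ± 35.5 and 239 ± 76.5 TPM in intact and sham synovium and at 13.1 ± 4.20 TPM in pMx. All 8 fat cell markers fell from sham to pMx (18.9% of all genes did). The collagen gene Col1a1 rose from sham to pMx by 1.81 ± 0.19 on the log2 scale (± SE).

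The interferon-stimulated genes as a group were highest in intact synovium, lower in sham synovium and lowest in the regenerating tissue. Their levels summed to 2773, 2580 and 2064 TPM in the 3 intact libraries, to 1628, 1492 and 1849 TPM in the 3 sham libraries and to 981, 1089 and 1054 TPM in the 3 pMx libraries. The 3 ranges do not overlap. As a share of all TPM the sums were 0.247% ± 0.0366 in intact, 0.166% ± 0.0180 in sham and 0.104% ± 0.00554 in pMx (SD, n = 3). A large part of each sum came from Ifi27, which made up 32.6% to 51.0% of it. These are bulk samples, in which fewer cells of a type and less RNA per cell cannot be told apart.

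**Figure D2:**
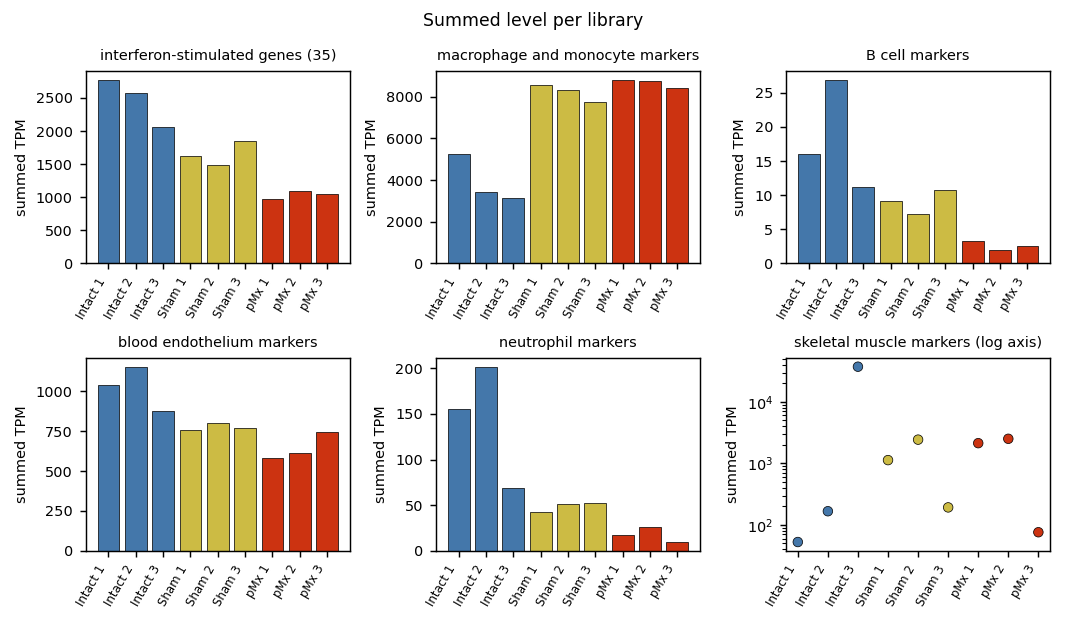
Summed TPM per library (bars from 0, 1 bar per library, coloured by group) of the 35 interferon-stimulated genes and of the macrophage and monocyte, B cell, blood endothelium and neutrophil marker lists, with the skeletal muscle markers as points on a log axis. The interferon-stimulated genes sum to 2064 to 2773 TPM in intact, 1492 to 1849 TPM in sham and 981 to 1089 TPM in pMx, the macrophage marker sum, mostly Lyz2, is higher in both surgical groups, and the muscle markers stand out in Intact 3 at 37285 TPM.

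In the regenerating tissue compared with sham synovium, 23 of the 35 genes fell and none rose (limma, adjusted p below 0.05), where 18.9% of all 16512 genes tested fell and 17.7% rose. At an unadjusted p below 0.05, 27 of the 35 differed, all of them lower. Of the 23, 10 were lower DEGs (4.85% of all genes were). The median log2 fold change of the 35 was -0.83, with a range from -1.63 (Mx1) to 0.05 (Stat2), and the median over all genes was -0.01. The 3 pMx libraries lay below the 3 sham libraries without overlap for 30 of the 35 genes, against 29% of all genes. Of the 23 calls, 15 held under each of the 20 other ways of processing the data or leaving out a library. The DEG count dropped from 10 to 6 without Sham 3 and to 6 without pMx 3.

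In sham compared with intact synovium, 16 of the 35 genes fell and none rose, against 5.97% and 6.73% of all genes, and 5 were lower DEGs (0.533% of all genes). The median log2 fold change was -0.62, all 35 values were below 0 with 28 at an unadjusted p below 0.05, and the groups did not overlap for 19 genes (16.4% of all genes). This count depended on single libraries. It was 32 without Intact 3 (11.8% of all genes then fell), 5 without Intact 1 (4.44% of all genes), 3 without Intact 2 (2.48%), 1 without Sham 1 (1.89%), 1 without Sham 2 (1.54%) and 17 without Sham 3 (3.14%). Without pMx 1, pMx 2 and pMx 3 it was 10, 9 and 9 (4.02%, 4.07% and 4.49%). A fit on the 6 intact and sham libraries alone called 1 gene (1.7% of all genes). Where the count was 1, it was near the share over all genes. The median stayed between -0.82 and -0.48 with a library left out. Only Gbp5 passed under all 20 alternatives.

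Leaving out Intact 3 changed the result of 18 of the 35 genes from intact to sham. Of the 16 that fell with all 9 libraries 15 also fell without it, Psmb8 was lost (adjusted p = 0.0517), and 17 further genes passed. The 17 were Mx1, Oas1a, Oasl, Rsad2, Eif2ak2 and Zbp1 among the antiviral effectors, the sensor gene Ddx60, the transcription factor genes Irf1, Irf9 and Stat2, the 5 enzyme genes Usp18, Trim25, Parp9, Parp14 and Dtx3l, and Gbp2 and Tap1. Only Oas2 and Tap2 passed in neither fit. The fold changes from sham to pMx do not use Intact 3, which enters only the pooled spread, and without it 30 of the 35 genes fell (23.5% of all genes).

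In the regenerating tissue compared with intact synovium, 32 of the 35 genes fell and none rose, against 27.1% and 23.4% of all genes, and 23 were lower DEGs (7.89% of all genes). The median log2 fold change was -1.38, and all 35 values were below 0 with 33 at an unadjusted p below 0.05. The groups did not overlap for 32 genes (30.6% of all genes), and the other 3 were Stat2, Trim25 and Tap1. Without Intact 3 all 35 fell (31.6% of all genes did). The ratio of the intact mean to the pMx mean ran from 1.17 for Stat2 to 15.6 for Rsad2, with a median of 2.94. The 3 comparisons share their libraries, so they are not independent of each other.

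**Figure D3:**
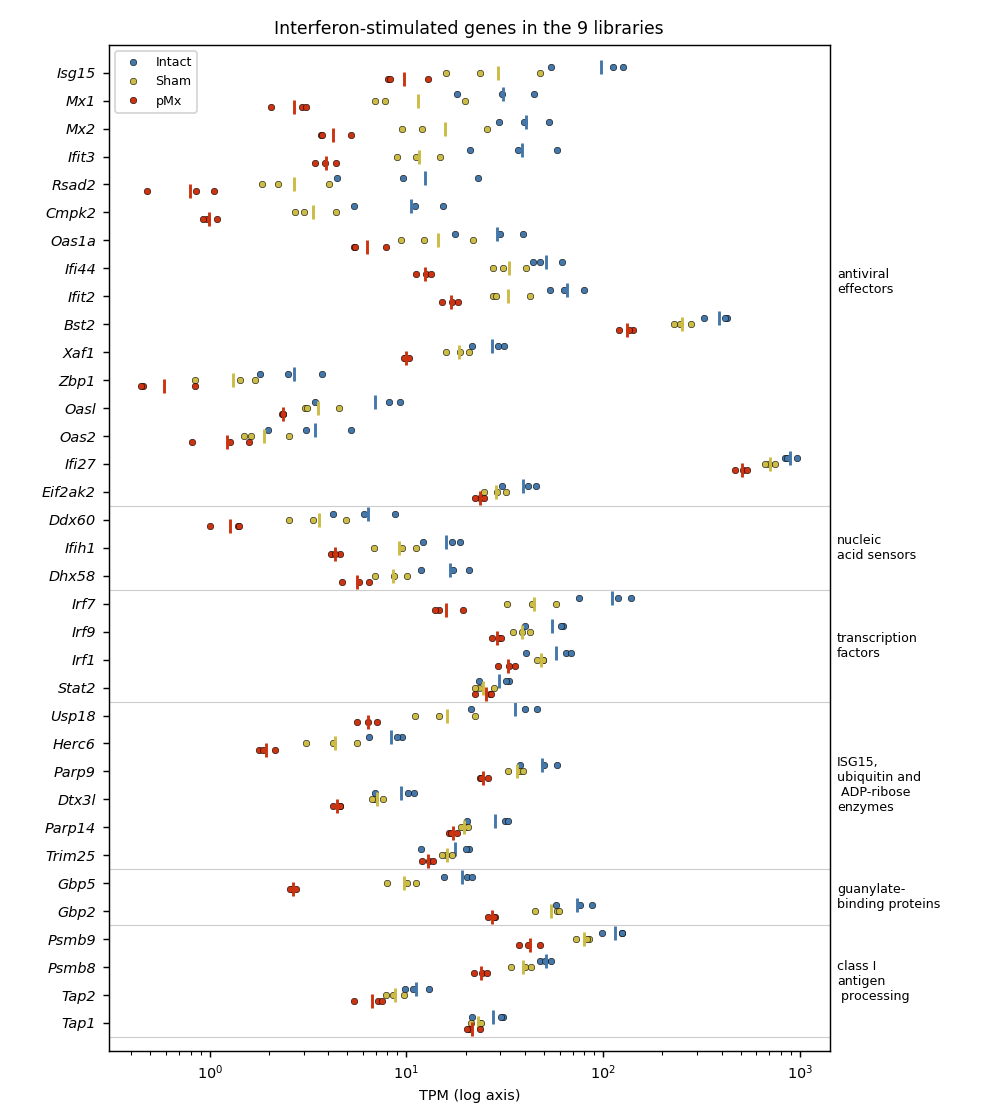
TPM of each interferon-stimulated gene in every library on a log axis, grouped by role, with a vertical tick at each group mean. The pMx points lie left of the sham points without overlap for 30 of the 35 genes, and the group means span from 0.583 TPM (Zbp1 in pMx) to 889 TPM (the intact mean of Ifi27).

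The 16 antiviral effectors included the gene that fell most in each of the 3 comparisons. Against sham, 11 of them fell in pMx (18.9% of all genes did), 7 as DEGs (4.85% of all genes), with a median log2 fold change of -0.97. Against intact, 9 fell in sham (5.97% of all genes, median -0.84) and all 16 fell in pMx (27.1% of all genes, median -1.92). Without Intact 3, 15 fell in sham (11.8% of all genes).

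Isg15 encodes a ubiquitin-like protein that is attached to other proteins during an interferon response. Its level was 126, 112 and 54.4 TPM in the intact libraries, 23.7, 15.9 and 47.8 TPM in the sham libraries and 12.9, 8.10 and 8.29 TPM in the pMx libraries. The groups did not overlap, and Intact 3 was close to Sham 3. Isg15 fell by 1.37 ± 0.43 on the log2 scale from sham to pMx (SE, adjusted p = 0.0346), by 1.76 ± 0.43 from intact to sham (adjusted p = 0.0330) and by 3.13 ± 0.43 from intact to pMx (adjusted p = 0.000373). The call from sham to pMx was lost in 6 of the 20 alternatives, among them without Sham 1 and without Sham 3, with an adjusted p of up to 0.103. The call from intact to sham was lost in 8 of the 20.

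Mx1 and Mx2 encode dynamin-like GTPases that block the replication of viruses, and they lie close together on the chromosome with 1 protein-coding gene between them. Mx1 was at 44.4, 30.5 and 18.1 TPM in intact, 7.77, 6.94 and 19.8 TPM in sham and 2.93, 3.09 and 2.05 TPM in pMx. Sham 3 was above Intact 3, while every pMx library was below every sham library. Mx1 fell from sham to pMx by 1.63 ± 0.41 on the log2 scale (adjusted p = 0.0143), the largest fall of the 35 genes in that comparison. Its log2 fold change from intact to sham was -1.41 ± 0.41 and did not pass (adjusted p = 0.0570), but it did without Intact 3 (adjusted p = 0.0243). Mx2 was at 53.4, 39.5 and 29.5 TPM in intact, 12.1, 9.51 and 25.5 TPM in sham and 3.69, 5.24 and 3.73 TPM in pMx, with no overlap between any of the groups. It fell by 1.57 ± 0.34 from sham to pMx (adjusted p = 0.00743) and by 1.4 ± 0.34 from intact to sham (adjusted p = 0.0338). The call of Mx2 from intact to sham was lost in 9 of the 20 alternatives.

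Ifit3 and its direct neighbour Ifit2 encode proteins of a family that recognises foreign RNA and restrains its translation. Ifit3 was at 36.9, 58.3 and 20.9 TPM in intact, 11.2, 8.98 and 14.8 TPM in sham and 3.43, 4.4 and 3.86 TPM in pMx. The 3 groups were separate, with the widest spread in intact. Ifit3 fell by 1.35 ± 0.33 on the log2 scale from sham to pMx (adjusted p = 0.0121), by 1.56 ± 0.33 from intact to sham (adjusted p = 0.0206) and by 2.91 ± 0.33 from intact to pMx (adjusted p = 0.000124). Ifit2 fell in all 3 comparisons too, by 0.90 ± 0.19 from sham to pMx. From intact to sham, Ifit3 and Ifit2 each lost their call in 3 of the 20 alternatives.

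Rsad2 encodes viperin, which makes a chain-terminating nucleotide from CTP, and its neighbour Cmpk2 encodes a nucleotide kinase that supplies the pathway. Rsad2 was at 9.61, 23.0 and 4.45 TPM in intact, 1.85, 2.22 and 4.02 TPM in sham and 0.850, 1.05 and 0.480 TPM in pMx. The groups did not overlap, but the intact libraries spanned a wide range and the pMx levels were near the pseudocount of 1 TPM, which understates such a change on the log2(TPM + 1) scale. Rsad2 fell from intact to pMx (-2.65 ± 0.48, adjusted p = 0.00176), while neither -1.64 ± 0.48 from intact to sham (adjusted p = 0.0575) nor -1.01 ± 0.48 from sham to pMx (adjusted p = 0.133) passed. Without Intact 3 both passed (adjusted p = 0.00922 and 0.0379). Cmpk2 was at 11.01, 15.4 and 5.42 TPM in intact, 3.03, 2.70 and 4.38 TPM in sham and 1.09, 0.970 and 0.920 TPM in pMx. It fell at both steps, by 1.32 ± 0.31 from intact to sham (adjusted p = 0.0285) and by 1.11 ± 0.31 from sham to pMx (adjusted p = 0.0210), and the second call was lost without Sham 3 and without any pMx library. The call of Cmpk2 from intact to sham was lost in 6 of the 20 alternatives.

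Ifi27, the most abundant of the 35 genes, encodes a small membrane protein. It was at 968, 840 and 858 TPM in intact, 694, 668 and 749 TPM in sham and 469, 514 and 537 TPM in pMx. The 3 groups were separate with little spread, and its falls from sham to pMx and from intact to sham were the smallest among the genes that passed there. Ifi27 fell by 0.47 ± 0.08 on the log2 scale from sham to pMx (adjusted p = 0.00259) and by 0.33 ± 0.08 from intact to sham (adjusted p = 0.0360). The call from intact to sham was lost in 10 of the 20 alternatives.

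Bst2 (tetherin), which holds budding viruses at the cell surface, fell from 389 ± 56.3 TPM in intact to 252 ± 25 in sham and 133 ± 11.2 in pMx. Its log2 fold change from sham to pMx was -0.92 ± 0.12 (adjusted p = 0.000603). Ifi44, from 51.1 ± 9.34 through 33.1 ± 6.53 to 12.4 ± 1.06 TPM, fell by 1.33 ± 0.16 from sham to pMx (adjusted p = 0.000381) and was a DEG there. Xaf1, a pro-apoptotic gene, fell by 0.82 ± 0.15 from sham to pMx. Bst2, Ifi44 and Xaf1 kept this call in all 20 alternatives.

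The 2′,5′-oligoadenylate synthetases make the messenger that activates RNase L. Oas1a fell from sham to pMx by 1.03 ± 0.34 on the log2 scale with an adjusted p of 0.0455, and this call was lost in 10 of the 20 alternatives. Oas2 (-0.37 ± 0.27), Oasl (-0.43 ± 0.29), the nucleic acid sensor and cell death gene Zbp1 (-0.54 ± 0.21) and the RNA-dependent kinase gene Eif2ak2 (-0.26 ± 0.15) did not pass there, although Oasl and Zbp1 did without Intact 3 (adjusted p = 0.0307 and 0.0415). All of these genes fell from intact to pMx. Members of the Oas, Ifit, Mx, Gbp and Ifi27 families have close relatives in the genome, so reads may have been divided among copies, and the counting tool is not given in the sources used here.

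The 3 sensors of viral RNA and their helpers had low levels. Dhx58 (LGP2), the most abundant in intact synovium, was at 20.7, 17.2 and 11.8 TPM in intact, 8.68, 6.91 and 10.1 TPM in sham and 5.74, 6.47 and 4.71 TPM in pMx. No group overlapped another. Dhx58 fell from intact to sham by 0.86 ± 0.21 on the log2 scale (adjusted p = 0.0338), and its -0.52 ± 0.21 from sham to pMx did not pass (adjusted p = 0.0848), but it did without Intact 3 (adjusted p = 0.0268). Ifih1 (MDA5) fell by 0.91 ± 0.19 from sham to pMx (adjusted p = 0.00638) and by 0.74 ± 0.19 from intact to sham (adjusted p = 0.0393). From intact to sham the call was lost in 7 of the 20 alternatives for Dhx58 and in 9 for Ifih1. Ddx60 fell by 0.99 ± 0.25 from sham to pMx (adjusted p = 0.0151), and its -0.67 ± 0.25 from intact to sham did not pass (adjusted p = 0.120, and 0.0362 without Intact 3).

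The 4 transcription factors differed in which of their changes passed, and a difference between these genes was not tested. Irf7, which amplifies type I interferon production, was at 139, 120 and 75.01 TPM in intact, 43.3, 32.4 and 57.3 TPM in sham and 14.6, 19.4 and 13.9 TPM in pMx. The groups were fully separate, and the pMx mean was 6.95 times lower than the intact mean. Irf7 fell by 1.39 ± 0.26 on the log2 scale from sham to pMx (adjusted p = 0.00379), by 1.3 ± 0.26 from intact to sham (adjusted p = 0.0194) and by 2.69 ± 0.26 from intact to pMx (adjusted p = 5.84e-05). The call from intact to sham was lost in 4 of the 20 alternatives.

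Irf1, a factor induced mainly by type II interferon, fell from sham to pMx by 0.56 ± 0.18 (adjusted p = 0.0381), a call lost without any sham or any pMx library. Irf9, the DNA-binding partner of STAT2, was at 54.7 ± 12.7, 38.6 ± 3.71 and 29.0 ± 1.48 TPM in intact, sham and pMx. It fell from intact to pMx by 0.86 ± 0.16 and did not pass at either step between (adjusted p = 0.0945 from intact to sham and 0.0865 from sham to pMx), whereas without Intact 3 it passed at both (adjusted p = 0.00398 and 0.00345). Stat2, singled out after its values were seen, was at 33.2, 32.2 and 23.4 TPM in intact, 23.5, 22.3 and 27.95 TPM in sham and 26.6, 27.1 and 22.4 TPM in pMx. All 3 groups overlapped, and none of its differences passed (adjusted p = 0.845 from sham to pMx, 0.310 from intact to sham and 0.285 from intact to pMx). Without Intact 3 it fell from intact to sham by 0.40 ± 0.11 (adjusted p = 0.0450) and from intact to pMx by 0.36 ± 0.11 (adjusted p = 0.0281). Its log2 fold change from sham to pMx was 0.05 ± 0.15 and its sign turned when Sham 2 or pMx 2 was left out.

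Among the 6 genes for the handling of ISG15, ubiquitin and ADP-ribose, 4 fell from sham to pMx, 1 from intact to sham and 5 from intact to pMx, where 18.9%, 5.97% and 27.1% of all genes did. The 1 of 6 from intact to sham is not read as a difference from the share over all genes, and without Intact 3 all 6 fell from intact to sham (11.8% of all genes). Parp9, the most abundant, was at 58.5, 49.9 and 37.6 TPM in intact, 38.0, 32.9 and 39.1 TPM in sham and 23.8, 26.1 and 24.0 TPM in pMx. The pMx libraries were below all others, and Intact 3 lay within the sham range. Parp9 fell by 0.55 ± 0.15 on the log2 scale from sham to pMx (adjusted p = 0.0178), and Dtx3l, its neighbour on the chromosome and partner in a ubiquitin ligase complex, fell by 0.57 ± 0.15 (adjusted p = 0.0196). Parp14, which neighbours Dtx3l on the other side, was at -0.19 ± 0.16 and did not pass (adjusted p = 0.396, and 0.0293 without Intact 3).

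Usp18, the protease that removes ISG15 and restrains the interferon receptor, fell from 35.8 ± 13.1 TPM in intact to 6.37 ± 0.745 TPM in pMx (-2.25 ± 0.31, adjusted p = 0.000389) and by 1.16 ± 0.31 from sham to pMx (adjusted p = 0.0185). Herc6, the rodent ISG15 ligase gene, fell in all 3 comparisons, by 0.83 ± 0.19 from sham to pMx. Its call from intact to sham was lost in 6 of the 20 alternatives. Trim25, a ubiquitin ligase gene that acts on the RIG-I sensor, passed in none, with log2 fold changes of -0.29 ± 0.18 from sham to pMx, -0.08 ± 0.18 from intact to sham and -0.38 ± 0.18 from intact to pMx. Without Intact 3, which had a low level of it, Trim25 passed in all 3 (adjusted p = 0.0118, 0.0302 and 0.000380 in the same order).

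The guanylate-binding proteins are GTPases that attack microbes inside cells and respond strongly to type II interferon. Gbp5 was at 20.3, 21.6 and 15.6 TPM in intact, 10.1, 7.97 and 11.2 TPM in sham and 2.61, 2.56 and 2.74 TPM in pMx. The 3 groups were far apart and the pMx libraries were nearly alike. Gbp5 fell by 1.55 ± 0.15 on the log2 scale from sham to pMx (adjusted p = 0.000136), by 0.90 ± 0.15 from intact to sham (adjusted p = 0.00978) and by 2.46 ± 0.15 from intact to pMx (adjusted p = 6.06e-06), and each of these calls held in all 20 alternatives. Gbp2 was at 87.7, 76.0 and 57.5 TPM in intact, 58.4, 44.9 and 59.7 TPM in sham and 26.0, 28.2 and 27.8 TPM in pMx. It fell from sham to pMx by 0.95 ± 0.16 (adjusted p = 0.00193), and its -0.42 ± 0.16 from intact to sham, where Intact 3 lay among the sham libraries, did not pass (adjusted p = 0.118, and 0.0188 without Intact 3).

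The 4 class I antigen processing genes are neighbours in the major histocompatibility complex, and they did not move alike. The immunoproteasome subunit gene Psmb9 was at 124, 124 and 98.2 TPM in intact, 84.6, 73.1 and 82.7 TPM in sham and 37.3, 48.0 and 41.7 TPM in pMx, with no overlap. Psmb9 fell by 0.91 ± 0.12 on the log2 scale from sham to pMx (adjusted p = 0.000611) and by 0.52 ± 0.12 from intact to sham (adjusted p = 0.0291). Psmb8, the partner subunit, fell by 0.68 ± 0.10 and 0.38 ± 0.10 in the same comparisons (adjusted p = 0.000999 and 0.0418). From intact to sham the call of Psmb9 was lost in 7 of the 20 alternatives. That of Psmb8 was lost in 12, among them without Intact 3. Tap1, which encodes a subunit of the peptide transporter and lies between Psmb8 and Psmb9, was at 30.8, 30.3 and 21.5 TPM in intact, 23.7, 21.2 and 24.0 TPM in sham and 20.8, 23.5 and 20.4 TPM in pMx. Its groups overlapped and none of its differences passed (-0.09 ± 0.14 from sham to pMx, adjusted p = 0.658). Without Intact 3 Tap1 fell from intact to sham by 0.40 ± 0.08 (adjusted p = 0.0172) and from intact to pMx by 0.49 ± 0.08 (adjusted p = 0.00156), and from sham to pMx it again did not pass (adjusted p = 0.365). Tap2, the other transporter subunit, was at -0.34 ± 0.15 from sham to pMx (adjusted p = 0.104) and fell from intact to pMx by 0.66 ± 0.15 (adjusted p = 0.00515). A difference between the responses of these neighbours was not tested.

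**Figure D4:**
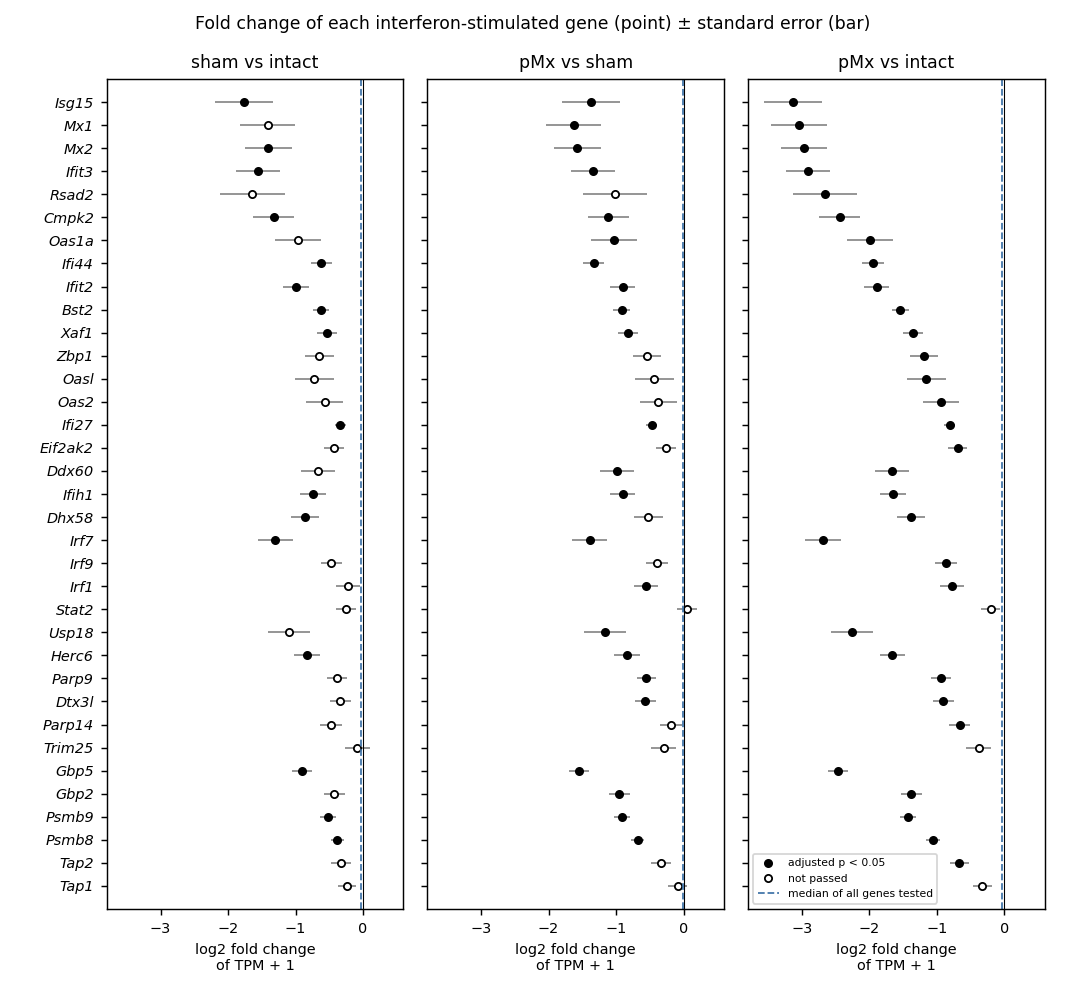
Log2 fold change of TPM + 1 for each interferon-stimulated gene (point) with its standard error (bar) in the 3 comparisons, with filled points for genes that passed at adjusted p below 0.05 and a dashed line at the median of all genes tested. The values run from -1.76 (Isg15) to -0.08 (Trim25) for sham against intact, from -1.63 (Mx1) to 0.05 (Stat2) for pMx against sham and from -3.13 (Isg15) to -0.20 (Stat2) for pMx against intact.

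Set beside the promoter sequences, the 18 genes whose window holds the ISRE core had a median log2 fold change from sham to pMx of -0.91, the 10 whose window lacks it -0.55 and the 7 without a window -0.90. The medians from intact to sham were -0.57, -0.49 and -0.99. The ranges of genes with and without the core were wide. Tap1 has the core and did not pass (-0.09), and Mx1 has no core in this window and fell most (-1.63). These medians are descriptions without a test.

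The spread within groups is described here without a test and without a value over all genes. The coefficient of variation of the 35 genes had a median of 23.2% in intact, 18.7% in sham and 9.23% in pMx. The genes share their libraries, so a library that stands apart can move many of these values together. Within their groups, Intact 3 was lowest for 32 of the 35 genes, Sham 3 highest for 30 and pMx 2 highest for 27. The part of such libraries in the medians was not tested. Rsad2 was the most variable in intact at 77.6%, Mx1 in sham at 62.6% and Zbp1 in pMx at 38.1%.

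The genes of the steps ahead, from the interferons to the signal inside the cell, were read from separate lists. Of the 16 interferon and receptor genes listed, 7 could be tested. Ifna1, the only interferon among those, was at 0.0333 ± 0.0289 TPM in intact and no higher in the other groups, with several libraries at 0. The 9 other listed interferon genes could not be tested, and Ifnb1 and Ifng among them were not found under these symbols. None of the 7 passed from sham to pMx (limma, 1 at an unadjusted p below 0.05, with up to 2 genes higher under an alternative). From intact to pMx 4 of the 7 rose and none fell, where 23.4% and 27.1% of all genes did. Alternatives were not run for that count. From intact to sham Ifngr2 rose by 0.23 ± 0.05 on the log2 scale (adjusted p = 0.0292) and Il10rb rose by 0.38 ± 0.09 (adjusted p = 0.0286). This count of 2 was 0 without Intact 2, without Sham 1 or without Sham 2, and 1 without Intact 1, without pMx 1 or without pMx 2. The type I receptor chain Ifnar1 was at 57.6 ± 9.44, 65.3 ± 5.05 and 72.1 ± 1.68 TPM and Ifnar2 at 26.0 ± 2.84, 22.6 ± 0.797 and 25.2 ± 0.669 TPM in intact, sham and pMx.

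Of 15 signal transduction genes, 4 rose and 3 fell from sham to pMx, where 17.7% and 18.9% of all genes did. The risers included the feedback inhibitors Socs3 (1.03 ± 0.20 on the log2 scale, adjusted p = 0.00436) and Socs1 (0.99 ± 0.24, adjusted p = 0.0125), the phosphatase gene Ptpn2 (0.45 ± 0.10, adjusted p = 0.00875) and the kinase gene Jak2 (0.71 ± 0.13, adjusted p = 0.00327). Those that fell were Irf2 (-0.44 ± 0.10), Pias1 (-0.29 ± 0.09) and Ptpn11 (-0.17 ± 0.05), and 1 fell without Sham 2, without Sham 3, without pMx 1 or without pMx 3. The 3 of 15 that fell are near the share over all genes. The count of 4 that rose was the same under all 20 alternatives. Socs3 was at 19.1 ± 2.12 TPM in intact, 27.9 ± 6.81 in sham and 57.9 ± 12.1 in pMx. SOCS1 and SOCS3 also answer to cytokines other than interferons. From intact to pMx 9 of the 15 rose and 5 fell, where 23.4% and 27.1% of all genes did. Alternatives were not run for these counts.

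Between intact and sham, Irf8 (0.77 ± 0.16) and Ptpn6 (0.66 ± 0.17) rose and Ptpn11 fell (-0.27 ± 0.05), where 6.73% of all genes rose and 5.97% fell. The 1 of 15 that fell is near the share over all genes. Irf8 and Ptpn6 are expressed mainly in blood-derived cells. The 2 rises became 0 without Sham 1 or Sham 2 and 1 without Intact 2 or any pMx library, and the fall became 0 without Sham 1 and 2 without Intact 3.

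**Figure D5:**
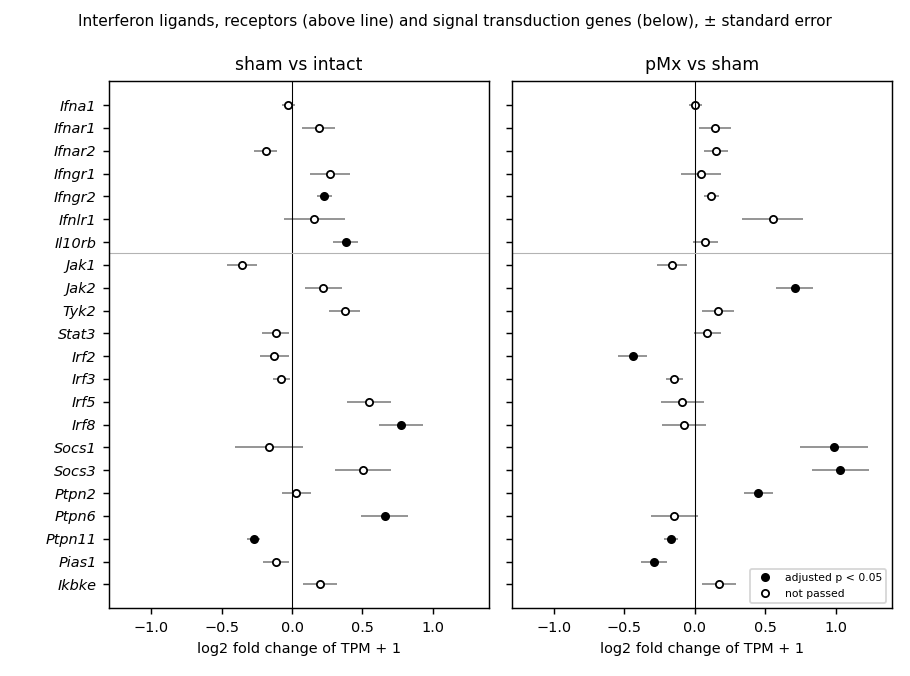
Log2 fold change of TPM + 1 with its standard error for the genes of interferon reception and signal transduction, from intact to sham and from sham to pMx. The receptor genes lie between -0.19 and 0.55, and Socs3 and Socs1 stand highest from sham to pMx at 1.03 and 0.99.

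Of 16 tested genes for the nucleic acid sensing that leads to interferon production, 2 rose from sham to pMx, the adaptor gene Ticam1 (0.37 ± 0.10) and the DNA sensor gene Cgas (0.27 ± 0.09), and 1 fell, the RNA sensor gene Ddx58 or RIG-I (-0.57 ± 0.19), which is itself interferon-stimulated. Both counts are below the shares over all genes (17.7% rose and 18.9% fell), and the median was -0.05. These small counts were unsteady: the fall was lost without Intact 2, without Sham 1 or 3 or without any pMx library and became 2 without Intact 3, and the rises became 0 or 1 in 7 of the 9 leave-outs, 0 without Sham 1 or 3 or pMx 1 or 2 and 1 without Intact 1, Sham 2 or pMx 3. From intact to pMx 5 of the 16 rose and 5 fell, where 23.4% and 27.1% of all genes did. These are not read as differences from those shares.

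A further list of 52 interferon-stimulated genes, of which 50 were tested, was read in the same way. From sham to pMx 28 fell and none rose, 5 of them as DEGs, with a median of -0.48 and 30 at an unadjusted p below 0.05. Over all genes 18.9% fell, 17.7% rose and 4.85% were lower DEGs. Tnfsf10, which encodes the death ligand TRAIL, fell most (-2.56 ± 0.16, adjusted p = 2.63e-05), from 29.8 ± 1.09 to 4.22 ± 0.427 TPM. Oas1k (-1.53 ± 0.24), the chemokine gene Cxcl9 (-1.47 ± 0.29) and Ifi44l (-1.3 ± 0.17) followed. Between intact and sham 12 fell, among them Gbp1 (-1.19 ± 0.23), and 1 rose, Ifitm1 (0.94 ± 0.12, adjusted p = 0.00499), which went from 96.3 ± 3.20 to 188 ± 38.0 TPM, where 5.97% of all genes fell and 6.73% rose. The count of 12 was 31 without Intact 3 (11.8% of all genes), 7 without Intact 1, 5 without Intact 2, 4 without Sham 1 and 3 without Sham 2. In each of the 20 alternatives 1 gene rose.

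Of 20 other genes of class I presentation, 6 fell and 3 rose from sham to pMx, against 18.9% and 17.7% of all genes, so the count that rose was below the share over all genes. The falls included the class I gene RT1-S3 (-1.37 ± 0.20), the light chain gene B2m (-1.27 ± 0.13, adjusted p = 0.000151), the class I gene RT1-M3-1 (-0.89 ± 0.11) and the proteasome activator gene Psme1 (-0.70 ± 0.07). B2m was at 2027 ± 301, 1745 ± 200 and 719 ± 18.0 TPM in intact, sham and pMx. The rises were the folding genes Calr (0.83 ± 0.11) and Pdia3 (0.60 ± 0.10), whose work is not limited to class I molecules, and the constitutive proteasome subunit gene Psmb5 (0.14 ± 0.05, adjusted p = 0.0421), chosen for mention because only 3 rose.

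Cell type markers moved with the groups as well. The 13 tested macrophage and monocyte markers summed to 3117 to 5231 TPM in intact, 7717 to 8546 TPM in sham and 8388 to 8800 TPM in pMx. From intact to sham 6 of them rose and none fell, where 6.73% and 5.97% of all genes did. From sham to pMx 1 of them rose and 3 fell, with Cd163 at -2.24 ± 0.25. Over all genes 17.7% rose and 18.9% fell, so the rise was below that share and the falls were near it. A large part of the macrophage and monocyte sum was Lyz2, the lysozyme gene, at 53.2% to 80.4% of it. Without Lyz2 the other 12 summed to 1457 to 2297 TPM in intact, 2427 to 2519 TPM in sham and 1641 to 2200 TPM in pMx, so that sham was above both other groups and intact and pMx overlapped. From intact to pMx 8 of the 13 rose and 1, Cd163, fell (-2.20, adjusted p = 0.000130), where 23.4% and 27.1% of all genes did. The median log2 fold change of the 13 was 0.59 there. C1qb (-0.31) and C1qc (-0.40) were lower without passing (adjusted p = 0.237 and 0.113).

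The 5 tested B cell markers summed to 11.2 to 26.9 TPM in intact, 7.32 to 10.7 TPM in sham and 2.04 to 3.23 TPM in pMx. From sham to pMx 4 of the 5 fell (18.9% of all genes did). The 8 neutrophil markers summed to 68.4 to 201 TPM, 42.5 to 51.9 TPM and 10.01 to 26.3 TPM in the same order. Of these, 4 fell from intact to sham (5.97% of all genes did) and 1, Mpo, fell from sham to pMx. That single fall is below the share over all genes (18.9%). From intact to pMx 6 fell and 1, Csf3r, rose (1.12 ± 0.20, adjusted p = 0.00170), where 27.1% and 23.4% of all genes did. Elane was at 0 in every pMx library, but it was already low at 0.710 ± 0.195 TPM in intact and 0.0633 ± 0.110 TPM in sham. The 8 blood endothelium markers summed to 875 to 1151 TPM, 758 to 802 TPM and 585 to 744 TPM. From sham to pMx 4 of them fell (18.9% of all genes did), while Tie1 (0.08 ± 0.11) and Cdh5 (0.33 ± 0.14) did not pass.

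The 13 tested T and NK cell markers summed to 135 to 223 TPM in intact, 237 to 255 TPM in sham and 168 to 213 TPM in pMx. Of these, 5 rose and none fell from intact to sham, where 6.73% and 5.97% of all genes did. Cd4, which macrophages of the rat also express, made up 85.5% to 94.4% of this sum, and the other 12 summed to 7.63 to 13.4, 22.4 to 25.04 and 24.4 to 27.9 TPM, with sham and pMx overlapping. From sham to pMx 2 rose, Cd8a (1.00 ± 0.19) and Cd8b (1.12 ± 0.17), and 1 fell, Cd3g (-0.53 ± 0.14). These counts are near or below the shares over all genes (17.7% rose and 18.9% fell). The 8 dendritic cell markers summed to 17.1 to 21.9, 21.5 to 29.2 and 45.3 to 51.4 TPM. This rise in the sum came from Itgax, at 2.12 ± 0.471, 7.45 ± 4.41 and 34.3 ± 2.20 TPM, and the other 7 summed to 15.2 to 19.2, 17.02 to 19.03 and 12.2 to 14.6 TPM. From sham to pMx 1 of the 8, Itgax, rose (2.20 ± 0.33) and 3 fell, among them Xcr1 and Clec9a, where 17.7% and 18.9% of all genes did. The 8 fat cell markers summed to 3373 to 7373, 4538 to 4995 and 315 to 495 TPM. The 12 synovial fibroblast and lining markers summed to 6042 to 8575, 11749 to 14807 and 37808 to 41021 TPM. Most of that sum in pMx was Col1a1, Col1a2 and Lum, at 15669 ± 1036, 14118 ± 562 and 7012 ± 157 TPM. Of the 12, 6 rose and 3 fell from sham to pMx, where 17.7% and 18.9% of all genes did. The lining gene Clic5 (-4.09 ± 0.27) and Vcam1 (-1.70 ± 0.14) were among those that fell. The part of each cell type in the levels of the interferon-stimulated genes was not tested.

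With the skeletal muscle genes, Col1a1 and Col1a2 left out and each library rescaled, 23 of the 35 genes fell from sham to pMx, 18 from intact to sham and 32 from intact to pMx, where 18.3%, 7.28% and 26.8% of all genes did. With a skeletal muscle score as a covariate the counts were 26, 27 and 33, against 21.2%, 9.95% and 29.7% of all genes. Both of these fits were added after the data were seen. The RNA integrity that the study lists for its samples was lower in intact than in sham and lower in sham than in pMx, without overlap between the groups. Its part in these differences was not tested and cannot be told apart from that of the groups.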

How the data were processed

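RNA from 9 libraries, 3 in each of the intact, sham and pMx groups, was sequenced from oligo-dT selected mRNA with dUTP second strands on a BGI platform. The deposited values are TPM, which the authors had calculated in the Dr. Tom system of BGI; HISAT2 2.0.4 and the build mRatBN7.2 are named in the submitters' processing notes, and the counting tool, annotation and filters are not given in the sources used here. TPM keeps no read numbers, so the depth is unknown and precision is the spread between replicates. Samples were grouped by their titles, and all 9 columns were matched.

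From these values log2(TPM + 1) was fitted with limma 3.58.1 in R 4.3.3 (1 mean per group, all 9 libraries, moderated with a mean-variance trend) for genes above 0 TPM in at least 3 libraries, 16512 in all, with Benjamini-Hochberg adjustment over all of them. The procedure was run on simulated data in which genes varied independently and with the same spread in every group. That run held no shifts of whole libraries, so it does not cover libraries that stand apart. Fold changes are on the log2(TPM + 1) scale, which understates changes of genes near 1 TPM. Summed levels, spreads and medians were computed in Python 3.11.15 with pandas 2.3.3, and figures were drawn with Matplotlib 3.10.9. Gene identifiers were matched to a RefSeq table of GRCr8 (17419 of 17602, 99.0%), which also gave neighbouring genes and promoter windows. Stretches are shown where the window's start is the gene's outermost annotated start.

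The members and all gene lists were chosen with earlier results of these data known. Values in every library are given for members among the 6 with the largest absolute log2 fold change in a comparison or leading their role by level, and for Stat2 and Tap1, added after their values were seen. An item of these lists is not reported here. Every gene of the receptor and signal transduction lists as used could be named, and in the other lists the 4 with the largest absolute log2 fold change among those that passed. A few other marker genes (Prg4, Tie1, Cdh5, Lyz2, Cd4, C1qb, C1qc, Csf3r) are named outside this rule. Alternatives were other pseudocounts, filters, scalings and moderation, a fit on the 6 libraries compared, a replicate block and leaving out each library. The 2 fits for skeletal muscle and type I collagen, and all alternatives of the other gene lists, were added after seeing the data.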

Additional observations from a re-analysis of the deposited data

How the results depend on the processing

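From sham to pMx the count of members that fell (23) stayed between 16 and 30 with a library left out and between 21 and 30 otherwise, the DEG count (10) between 6 and 14 and between 8 and 15, and the median between -0.97 and -0.71 with a library left out. From intact to pMx 31 to 35 (main 32) fell and 22 to 28 (main 23) were DEGs. No member rose in any comparison under any of the 20 alternatives. From intact to sham the count of 16 ranged from 1 to 32 and the DEG count of 5 from 0 to 13 with a library left out (13 without Intact 3, 10 without Sham 3, 3 without Intact 1, pMx 2 or pMx 3, 1 without Intact 2 and 0 without Sham 1 or Sham 2). The fit on the 6 libraries alone gave 1 and 0, the skeletal muscle covariate, chosen after seeing the data, gave 27 and 8, and a minimum mean of 1 TPM and the median-of-ratios rescaling gave 8 DEGs each. With the replicate number as a block 5 fell and 2 were DEGs from intact to sham, and from sham to pMx 22 fell. Whether the numbers pair the libraries cannot be told from the deviations from the group means. For libraries that share a number these correlated at 0.03, 0.37 and 0.48 between pMx and sham. Pairs of unlike number ran from -0.47 to 0.31 there. For a shared number the values were 0.00, -0.40 and -0.49 between sham and intact and -0.38, -0.44 and -0.66 between pMx and intact.

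The 4 changes of sign among 2100 gene values were all in genes that did not pass: Stat2 from sham to pMx (-0.0198 to 0.138 with a library left out) at -0.0198 without Sham 2 and -0.00157 without pMx 2, and Trim25 from intact to sham (-0.327 to 0.0484) at 0.0484 without Intact 1 and 0.0255 without Intact 2. Of the others 1880 kept their side of the threshold, 146 lost a pass and 70 gained one.

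In the other gene lists, all of these alternatives were added later. From sham to pMx the receptor genes that rose (0) were 0 to 2 with a library left out, 2 with median-of-ratios rescaling, and 1 with quantile normalization and with the replicate block. The signal transduction genes that fell (3) were 1 to 3 with a library left out and 5 in the 6-library fit. The sensing genes that fell (1) were 0 to 2 with a library left out, 2 in the 6-library fit and 0 with the replicate block. Those that rose (2) were 0 to 2 with a library left out and 1 with either smaller pseudocount (0.1, 0.01), a minimum mean of 1 TPM, robust moderation or the replicate block. Of the further interferon-stimulated genes 1 rose in the 6-library fit, and 0 to 1 with a library left out (1 without Sham 2). Between intact and sham the receptor genes that rose (2) were 0 to 2 with a library left out, 0 in the 6-library fit and 1 with the replicate block, and 0 to 1 fell (1 without Intact 3). The signal transduction genes that fell (1) were 0 to 2 with a library left out, 0 in the 6-library fit and 2 with median-of-ratios rescaling, the skeletal muscle covariate or muscle and type I collagen genes left out. Those that rose (2) were 0 to 3 with a library left out, 4 with median-of-ratios rescaling, quantile normalization, the skeletal muscle covariate or muscle and type I collagen genes left out, and 0 in the 6-library fit. The further interferon-stimulated genes that fell (12) were 3 to 31 with a library left out and 5 in the 6-library fit.

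Over all genes, a pseudocount of 0.1 or 0.01 raised the DEG count from 1355 to 2229 or 2303 (sham to pMx), from 323 to 612 or 603 (intact to sham) and from 2360 to 3531 or 3662 (intact to pMx). Between intact and sham 2097 genes passed, against 687 in the 6-library fit, 740 without Sham 1, 640 without Sham 2 and 1098 without Intact 2, and the share of these that fell was 47.0%, against 65.1% without Intact 3 and 35.9% without Sham 3. The causes of these shifts were not tested.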
